A study of Mus musculus with 29 samples.

Results

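The proteasome subunit genes of the mouse were described across sorted bipolar cells, rods and cones. They were taken as the genes of the RNA-seq count table whose symbols start with Psm, a letter from a to g and a number, which gave 50 of the 24062 genes listed. By role, 14 encode the constitutive subunits of the 20S core, 4 encode inducible or tissue-specific catalytic subunits, 17 encode the 19S regulatory particle, 6 encode activators or an inhibitor, and 7 encode assembly chaperones. The remaining 2 are Psma8, a testis-specific alpha subunit, and Psmc3ip, which the name rule caught although it encodes a recombination protein and no proteasome subunit.

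The proteasome is the protease that degrades ubiquitin-tagged proteins in the cytosol and nucleus. Its barrel-shaped 20S core holds the catalytic sites in inner beta rings closed off by outer alpha rings, and the 19S particle binds ubiquitin, unfolds the substrate with a ring of ATPases and threads it into the core. In immune cells and after interferon, alternative catalytic subunits replace the constitutive ones to form the immunoproteasome, and the PA28 activator opens the core independently of ubiquitin, both best known for making peptides for antigen presentation.

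RNA-seq was performed on 5 populations with 3 libraries each, and ATAC-seq, which measures chromatin accessibility, on 6 populations with 2 libraries each used here. All cells were isolated from adult retina by FACS. Every bipolar library came from mice with 1 Otx2 allele carrying GFP (Otx2-GFP+/-): aggregate bipolar cells (pan-BC; Otx2-GFP+/- alone for RNA-seq, Otx2-GFP+/-; Grm6-YFP+/+ for ATAC-seq, single sort), ON bipolar cells (ON-BC; Otx2-GFP+/-; Grm6-YFP+/+, single sort) and OFF bipolar cells (OFF-BC; the same genotype, double sort), at postnatal day 42 to 48. ON-BC and OFF-BC libraries of the same number had the same age (days 43, 48 and 42 in RNA-seq, 42 and 46 in ATAC-seq). Rods (Nrl-eGFP), blue cones (Nrl-eGFP;NrlKO) and green cones (Opn1mw-GFP, ATAC-seq only) were at postnatal day 56 and were re-analyzed libraries of earlier work. The blue cone libraries hold photoreceptors that lack Nrl and serve as a stand-in for native blue cones, and cells with intermediate Grm6-YFP fluorescence belong to neither the ON-BC nor the OFF-BC gate. Source study, age, reporter line and cell class therefore cannot be told apart between bipolar cells and photoreceptors, and p-values measure only the spread between these libraries. Between ON-BC and OFF-BC, cell type and single or double sort cannot be told apart.

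The RNA-seq libraries held 12329548 to 26266746 counted reads (median 15569580) and the ATAC-seq libraries 4176776 to 12345845 (median 6648830). Levels are normalized read counts, the reads of a gene or region divided by a size factor per library. Summed markers of bipolar cells were at 119538 to 195735 normalized counts in bipolar libraries, 1491 to 2078 for rods and 26399 to 30760.3 for blue cones. The summed rod markers were at 18153 to 22118 for pan-BC, 16453 to 20033 for ON-BC and 806 to 1255 for OFF-BC, against 1198791 to 1822707 for rods. Cone markers summed to 40493 to 66190.0 for pan-BC, 4047 to 4666 for ON-BC, 20732 to 89734 for OFF-BC and 1410895 to 1633540.4 for blue cones.

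The 50 genes together took 0.745 to 0.819% of counted reads in pan-BC, 0.781 to 0.809% for ON-BC and 0.881 to 0.939% for OFF-BC, against 0.408 to 0.420% for rods and 0.461 to 0.596% for blue cones. Bipolar libraries thus gave a larger share of their reads to proteasome genes than photoreceptor libraries did, with no overlap. In bulk samples, fewer cells that express a gene and less RNA per cell cannot be told apart. A filter on low counts left 48 of the 50 genes among 14024 tested. Psma8 had 0 reads in all 15 libraries, and Psmb11, the thymic catalytic subunit, was at 3.07 in 1 rod library and 0 in the rest.

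To compare populations, limma was fitted to log2(normalized count + 1) over all 15 RNA-seq libraries, and a gene was called either different from 0 or, by the stricter test, different by more than 2-fold. Between pan-BC and rods, 32 of the 48 genes were higher and 9 lower in pan-BC at an adjusted p under 0.05, where 44.2% and 35.4% of all genes tested were. By more than 2-fold, 9 were higher and 1 lower, where 27.8% and 15.8% of all genes were. Their median log2 difference was 0.57, beside 0.21 over all genes. Between pan-BC and blue cones, 28 were higher and 11 lower (all genes 42.0% and 34.3%), of which 5 and 2 differed by more than 2-fold (22.7% and 13.7%), with a median of 0.43 beside 0.16. Under this scaling the share of members past 2-fold thus did not exceed that of all genes, and the members went in different directions by role. With libraries scaled to their totals, which moved the median of all genes to 0.55 against rods and 0.44 against blue cones, 17 members were higher and 1 lower by more than 2-fold against rods (all genes 32.1% and 11.3%), and 13 and 1 against blue cones (26.4% and 10.4%), so that the share of higher members was then slightly above that of all genes. The log2 differences by role place the 20S genes to the right of 0 in both comparisons and spread the 19S genes around it.

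**Figure D1:**
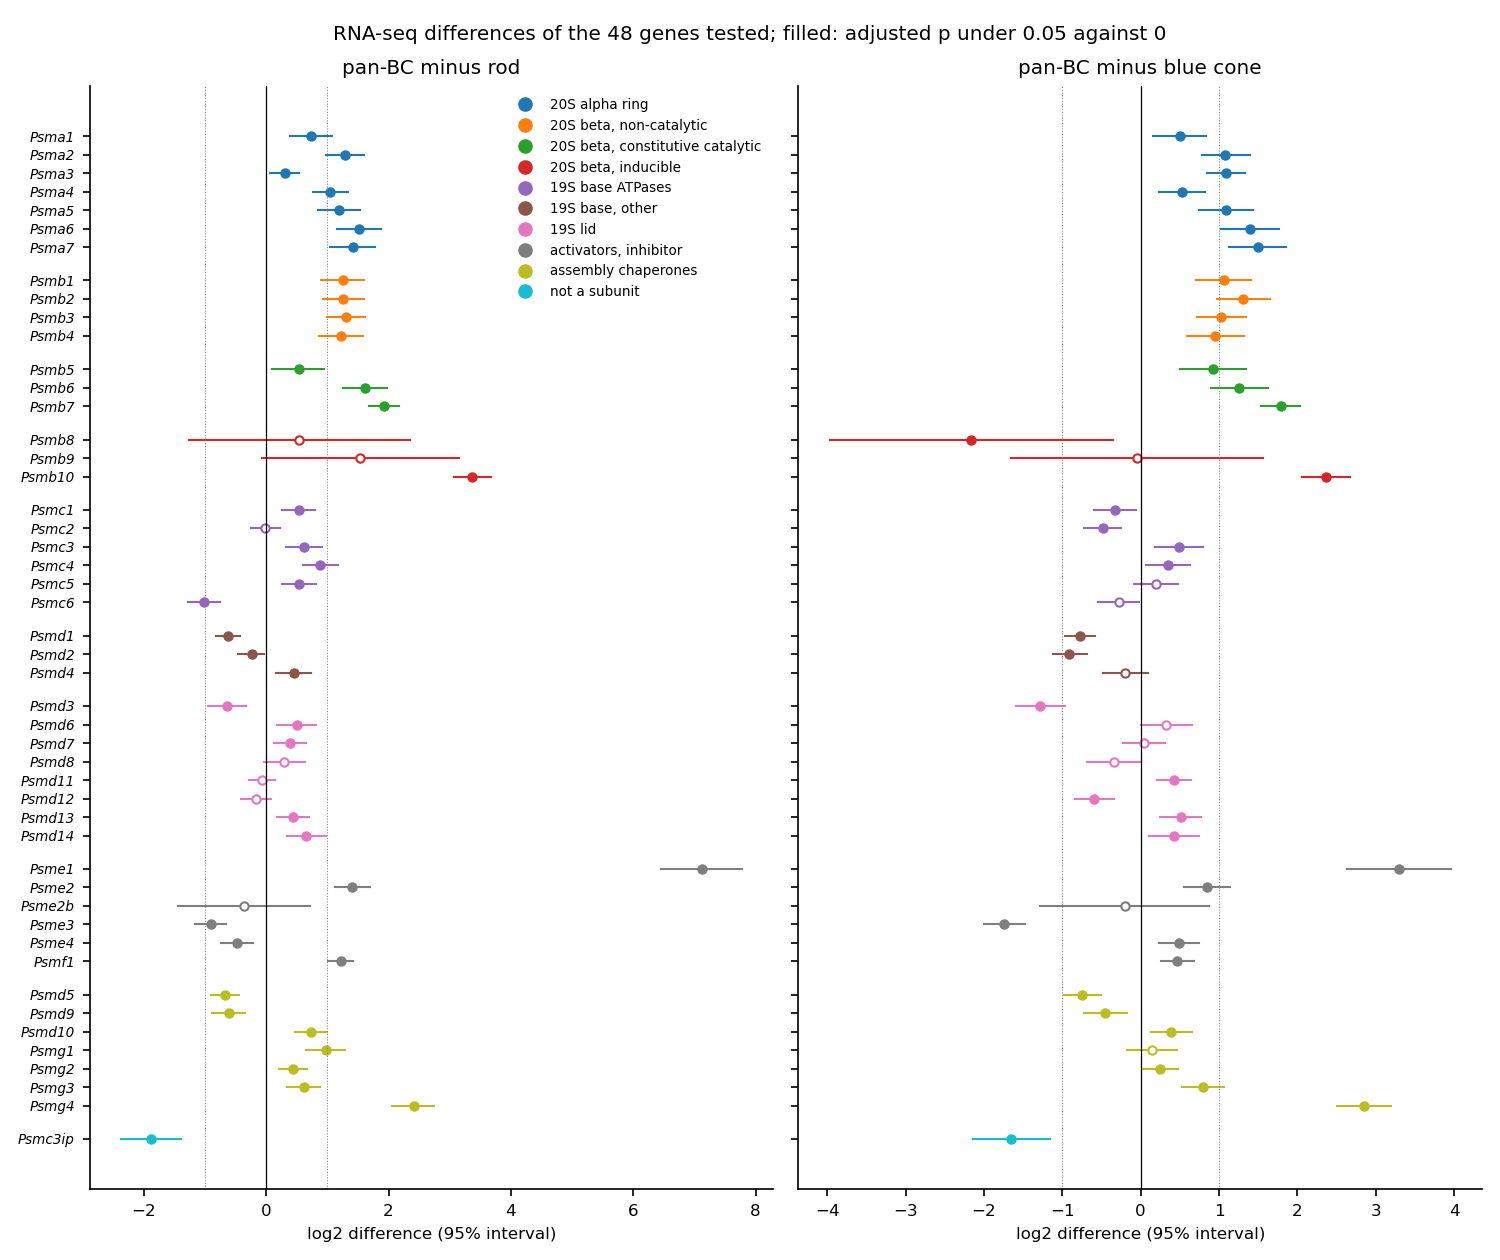
Log2 difference in normalized count (x axis, 95% interval of the limma fit) of the 48 genes tested (y axis, colored by role), for pan-BC minus rods (left) and pan-BC minus blue cones (right); filled points differed from 0 and dotted lines mark 2-fold. All 14 constitutive 20S genes lie to the right of 0 in both panels, and Psme1 lies farthest right at 7.12 and 3.30.

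Setting all 9 bipolar libraries against all 6 photoreceptor libraries, 23 of the 48 genes were higher in every bipolar library and 6 were lower in every one, where 26.6% and 21.4% of all genes were. The lower genes were the 19S subunits Psmd1, Psmd2 and Psmd3, the chaperone Psmd5, the nuclear activator Psme3 and Psmc3ip. Of the 14 constitutive 20S genes, 13 were higher in every bipolar library; Psma1, an alpha ring subunit, was the exception, its highest blue cone library (3763) lying above the lowest ON-BC library (3280.3).

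The 20S core genes were higher in pan-BC than in both photoreceptor types. The alpha subunits form the gate of the core and the beta subunits carry its proteolytic sites. All 14 were higher than in rods by the test against 0 (all genes 44.2%), with a median log2 difference of 1.26 (range 0.30 to 1.93). All 14 were also higher than in blue cones (42.0%), with a median of 1.09 (0.50 to 1.79). Of these, 4 passed 2-fold against rods (Psma6, Psma7, Psmb6 and Psmb7) and 2 against blue cones (Psma7 and Psmb7), where 27.8% and 22.7% of all genes did. Past 2-fold, the 20S genes were thus near the share of all genes against rods and below it against blue cones. With a trend on transcript length removed, as described with the lengths, limma called 0 of the 14 past 2-fold in either comparison, and against rods Psmb7 was then at 0.90, Psma7 at 0.86, Psmb6 at 0.64 and Psma6 at 0.59, each still different from 0. Psmb7, the trypsin-like catalytic subunit, changed most of the 14. It was at 3343, 3503 and 3014 normalized counts in pan-BC, 2630.2, 3045 and 3094 for ON-BC, 4015, 3678 and 3724 for OFF-BC, 835, 997 and 769 for rods and 868, 926 and 1069.5 for blue cones. Every bipolar library exceeded every photoreceptor library, while the rod and blue cone libraries overlapped. The pan-BC difference was 1.93 against rods (limma adjusted p 1.18e-06 past 2-fold) and 1.79 against blue cones (1.21e-05).

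Psmb6, the caspase-like catalytic subunit, had the highest mean level per kilobase of exon of the 14 genes in every population. Its normalized count was 9629, 9875 and 8527 for pan-BC, 9076, 8414 and 9811 for ON-BC, 12289.6, 10735 and 12243 for OFF-BC, 2707, 3426 and 3036 for rods and 2814, 4013 and 5247 for blue cones. Pan-BC stood 1.62 above rods (limma adjusted p 0.00315 past 2-fold), and the 1.26 against blue cones differed from 0 but not past 2-fold. Bipolar libraries were all above photoreceptor libraries. The alpha ring subunit Psma7 was at 7035, 7523 and 6566 for pan-BC, 7383, 7055 and 8229.8 for ON-BC, 8219, 7322 and 8669 for OFF-BC, 2316, 2932 and 2693 for rods and 1909, 2262 and 3578 for blue cones. Its differences of 1.42 and 1.50 passed 2-fold (limma adjusted p 0.0332 and 0.0166). The Psma7 call against rods was lost without pan-BC library 1 or 2 or rod library 1 or 3 (limma adjusted p 0.0561 to 0.124), and the call against blue cones without pan-BC library 2 or blue cone library 1 or 2 (0.0575 to 0.105). The alpha subunit Psma6 was at 4373, 4607 and 3655 for pan-BC, 3736, 3754 and 4047 for ON-BC, 5079, 4561 and 4818 for OFF-BC, 1312, 1684 and 1420.0 for rods and 1185, 1498 and 2272 for blue cones. Its difference of 1.52 against rods passed 2-fold (limma adjusted p 0.0112), and the 1.40 against blue cones did not (0.05).

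Psmb5, which carries the chymotrypsin-like site, had a smaller fitted difference than its catalytic partners. It was at 548, 545 and 466 for pan-BC, 632, 730.0 and 586 for ON-BC, 625, 722 and 793 for OFF-BC, 299, 394 and 394 for rods and 186, 297 and 369 for blue cones, a log2 difference of 0.53 against rods (limma adjusted p 0.0233 against 0). With the length trend removed its pan-BC minus rod difference turned to -0.57 (0.00654) and its pan-BC minus blue cone difference was -0.06 (0.75), so its direction depends on that setting. The alpha subunit Psma3 separated the photoreceptors. Its level was 1363, 1435 and 1355 for rods and 848, 759 and 806 for blue cones, 0.78 higher in rods without overlap (limma adjusted p 1.79e-05), and the bipolar libraries were at 1728, 1956 and 1477 for pan-BC, 1886, 1700.0 and 1792 for ON-BC and 2120.2, 1645 and 1869 for OFF-BC. Pan-BC lay 0.30 above rods and 1.09 above blue cones on the log2 scale.

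The 19S particle genes went in both directions, as did all genes tested. Against rods, 9 of the 17 were higher and 4 lower in pan-BC (all genes 44.2% and 35.4%), with a median of 0.39 (range -1.01 to 0.88). Against blue cones 5 were higher and 6 lower (42.0% and 34.3%), with a median of -0.20 (range -1.28 to 0.51). Past 2-fold, limma called 0 in either comparison (all genes 27.8% higher and 15.8% lower against rods, 22.7% and 13.7% against blue cones). Against rods, edgeR and DESeq2 also called 0 and limma had 0 at an unadjusted p under 0.05, and against blue cones DESeq2 called 0, edgeR 1 lower, and limma had 1 lower at an unadjusted p under 0.05. Among the ATPases of the base, Psmc4 was highest against rods at 0.88 and Psmc6 lowest. Psmc6 was at 2387, 2676 and 2179 for pan-BC, 2493, 2214 and 2229.6 for ON-BC, 2775, 2678 and 2524 for OFF-BC, 4588, 5218 and 4791 for rods and 2423, 2896 and 3534 for blue cones. The rods thus stood above all other libraries. Pan-BC minus rods was -1.01 (limma adjusted p 1e-06 against 0), rods minus blue cones 0.74 (8.2e-05) and pan-BC minus blue cones -0.28 (0.0513). With the length trend removed, Psmc6 was past 2-fold lower than in rods at -1.59 (5.37e-05), the 1 such call among the 19S genes in these comparisons.

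The large scaffold subunits Psmd1 and Psmd2 and the lid subunit Psmd3 were lower in every bipolar library than in every photoreceptor library. Psmd2 was at 3280.3, 3021 and 3197 for pan-BC, 3413, 4052 and 3794 for rods and 5469, 6394 and 5978 for blue cones, a difference of -0.24 against rods, which turned to 0.11 (limma adjusted p 0.24) with library totals, and -0.91 against blue cones. Psmd3 was at 520.1, 492 and 664 for pan-BC, 750.2, 612 and 800.3 for ON-BC, 355, 418 and 419 for OFF-BC, 917, 822 and 861 for rods and 1115, 1433 and 1537 for blue cones. OFF-BC was lowest and blue cones highest, and pan-BC minus rods was -0.64 (limma adjusted p 0.00073 against 0) and pan-BC minus blue cones -1.28 (5.81e-07). The deubiquitinase of the lid, Psmd14, was higher against rods by 0.65, and its partner Psmd7 by 0.39, whereas with the length trend removed they were at 0.06 and -0.16 and neither differed from 0 (limma adjusted p 0.625 and 0.127). Psmg2, Psmd7 and Psmd6 were the members whose population means differed least, their highest over their lowest mean being 1.37, 1.39 and 1.44. Psmg2, an assembly chaperone, was at 1819, 1952 and 1571 for pan-BC, 1737, 1863 and 1820.2 for ON-BC, 1530.1, 1451 and 1356 for OFF-BC, 1326, 1301 and 1316 for rods and 1364, 1409 and 1722 for blue cones. Psmd7 was at 3311, 3366 and 2921 for pan-BC, 3268, 2919.9 and 3103 for ON-BC, 3624, 3001 and 3516 for OFF-BC, 2398, 2532 and 2371 for rods and 2525, 3194 and 3684 for blue cones. Psmd6, also of the lid, was at 3041, 2990.0 and 2566 for pan-BC, 2932, 2636 and 2812 for ON-BC, 3136, 2534 and 3093 for OFF-BC, 1811, 2358 and 1938 for rods and 1792, 2281 and 2882 for blue cones. For all 3 genes the blue cone libraries overlapped those of pan-BC.

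As a measure that does not depend on library scaling, chosen after seeing the data, the summed count of the 14 core genes was divided by that of the 17 19S genes. The ratio was 0.882, 0.904 and 0.846 for pan-BC, 0.833, 0.842 and 0.841 for ON-BC, 0.889, 0.972 and 0.953 for OFF-BC, 0.403, 0.426 and 0.415 for rods and 0.323, 0.342 and 0.420 for blue cones. Every bipolar library lay above every photoreceptor library. Pan-BC exceeded rods by 0.463 and blue cones by 0.516, and ON-BC minus OFF-BC was -0.0996, each with an exact two-sided permutation p of 0.1, the smallest that 3 libraries against 3 allow. Rods and blue cones overlapped (exact permutation p 0.3). Over the 32 tests of such ratios, the Benjamini-Hochberg adjusted value of an exact permutation p of 0.1 was 0.123. The libraries are plotted by population for this ratio and for the 2 ratios described for Psmb10 and Psme1.

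**Figure D2:**
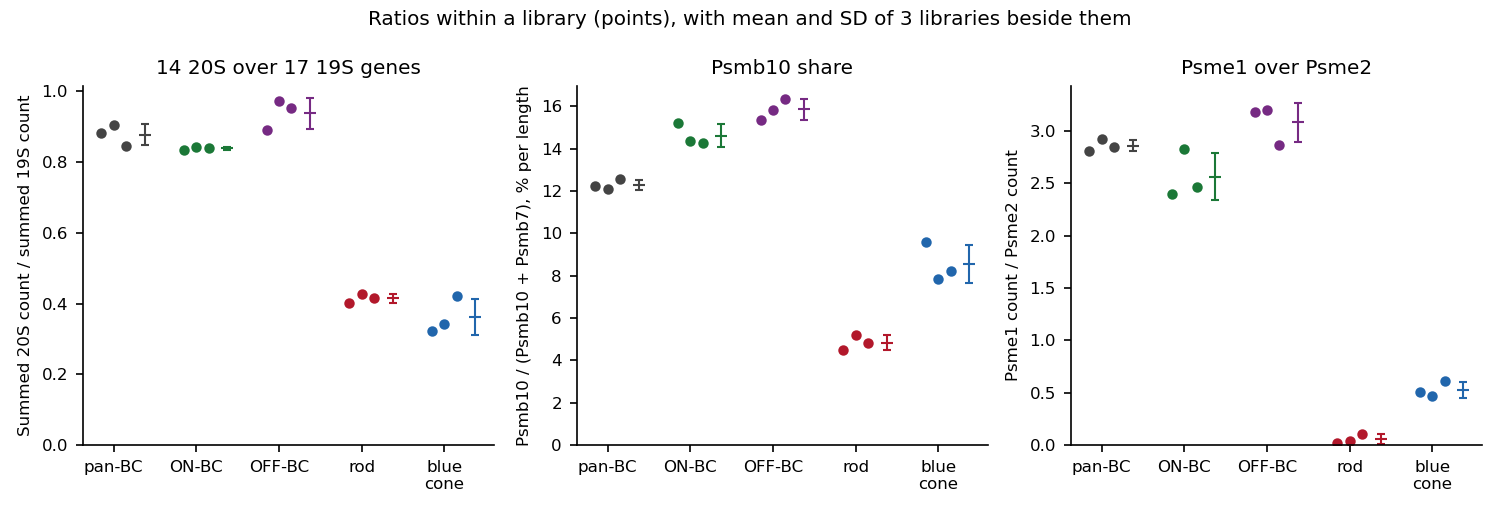
Ratio in each RNA-seq library (points), with the population mean and SD of 3 libraries beside them: summed 20S over summed 19S counts, the share of Psmb10 in Psmb10 plus Psmb7 per length (percent), and Psme1 over Psme2 counts (y axes), for pan-BC, ON-BC, OFF-BC, rods and blue cones. All 3 ratios are higher in every bipolar library than in every photoreceptor library.

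Transcript length moved with these differences. The 20S genes are short, with a median exon length of 1036 bases, beside 1564 for the 19S genes and 3107 for all genes tested. Over all genes, the median pan-BC minus rod difference was 1.18 under 1000 bases, 0.76 from 1000 to 1500, 0.35 from 1500 to 2000, 0.09 from 2000 to 3000 and -0.15 from 3000 to 5000. From 5000 bases it was higher again at 0.08, and 0.33 against blue cones. The members' medians against rods in the first 3 classes were 1.29, 0.81 and 0.39. Against blue cones, all genes gave 1.18, 0.62 and 0.11 in those 3 classes and the members 0.99, 0.37 and 0.04. In these classes the members' medians were near those of all genes against rods and below them against blue cones. Of the 9 longer members, the 5 from 2000 to 3000 bases had medians of -0.64 against rods and -0.75 against blue cones, beside 0.09 and -0.12 for all genes. The 3 from 3000 to 5000 bases had -0.24 and -0.77, beside -0.15 and -0.16, and the 1 from 5000 bases was at -0.48 and 0.49. The ribosomal protein genes (74 tested, median length 737 bases) had medians of 1.29 against rods and 1.83 against blue cones, and the oxidative phosphorylation genes (78 tested, 754 bases for the 77 with a length) 1.64 and 1.54.

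With a smooth trend on length removed from every library, a setting chosen after seeing these values, the median of the 48 members turned to -0.07 against rods and -0.11 against blue cones. Of the 48, 13 were then higher and 19 lower at an adjusted p under 0.05 by limma against rods (all genes 38.2% and 41.8%), and 13 and 18 against blue cones (36.8% and 39.2%). The 20S genes kept a positive median of 0.22 against rods (7 higher and 1, Psmb5, lower) and 0.28 against blue cones (7 higher), while the 19S genes had -0.27 (1 higher, 10 lower) and -0.61 (1 higher, 11 lower). The order of the 20S above the 19S genes thus held with and without the trend, and the upward shift of the members as a group did not. Whether length-dependent recovery of transcripts plays a part was not tested. Of the 80 member differences of pan-BC relative to either photoreceptor that were called against 0, 19 turned in sign under this setting, 6 of them with a call the other way (Psmb5, Psmc5, Psmd4, Psmg2 and Psmg3 against rods and Psmg2 against blue cones). The plot of the differences against length shows the shorter members near the median of all genes and most of those from 2000 to 5000 bases below it.

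**Figure D3:**
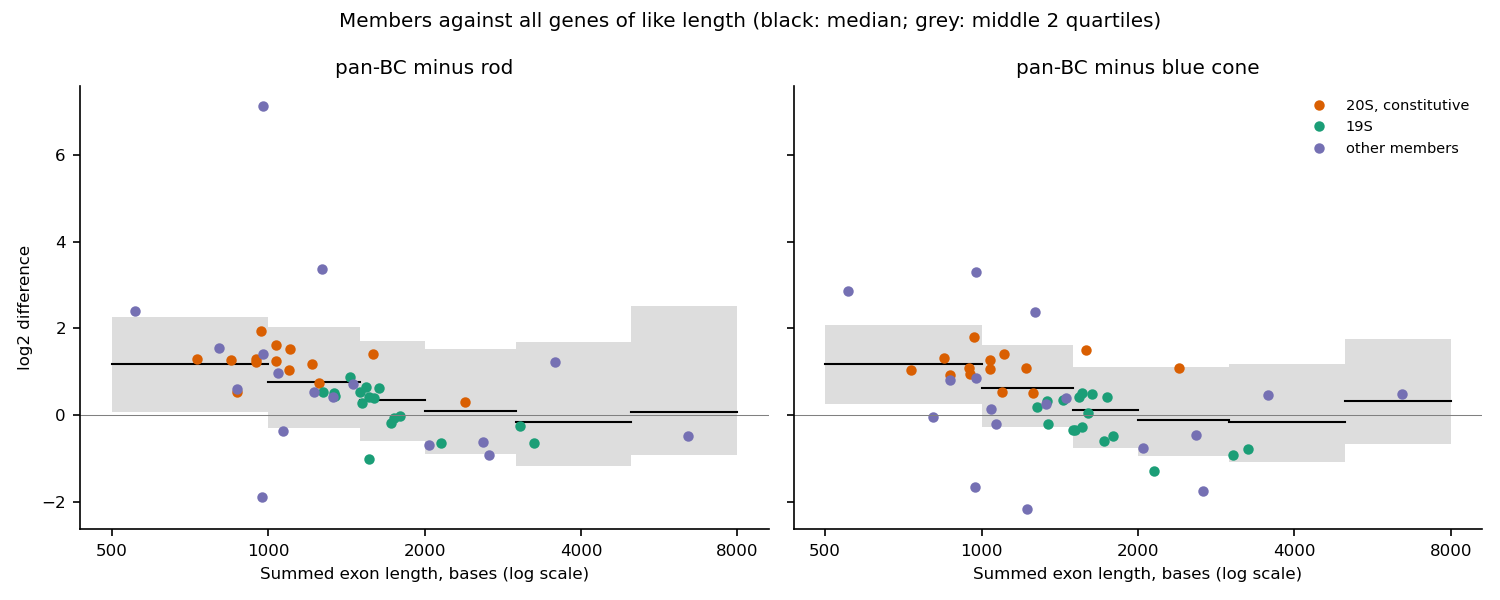
Log2 difference of each member (points, colored by role) against exon length in bases (log axis), for pan-BC minus rods and pan-BC minus blue cones, over the median (black) and middle quartiles (grey) of all genes of like length. The all-gene median falls from 1.18 under 1000 bases to -0.15 and -0.16 from 3000 to 5000 bases and is 0.08 and 0.33 from 5000 bases. Psme1 stands far above it in both panels.

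Of the inducible catalytic subunits, Psmb10 was detected in every library. Psmb10 (chr8:105935728-105938392, mm10), the interferon-inducible counterpart of Psmb7, was at 610.5, 632 and 566 for pan-BC, 619, 669 and 674 for ON-BC, 956, 906 and 954 for OFF-BC, 51.4, 71.7 and 50.8 for rods and 120.3, 103 and 126 for blue cones. The populations ranked OFF-BC, ON-BC, pan-BC, blue cones and rods, with pan-BC and ON-BC overlapping and all other neighbors apart. Pan-BC, the aggregate of bipolar cells, thus had a mean (603) below those of both ON-BC (654) and OFF-BC (939). Pan-BC exceeded rods by 3.37 (SE 0.15, limma adjusted p 1.57e-10 past 2-fold) and blue cones by 2.37 (3.3e-07). Rods lay below blue cones, with a rods minus blue cones difference of -1.01 (limma adjusted p 1.75e-05 against 0).

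Psmb10 was also higher in bipolar cells relative to the subunit it replaces. Its share of Psmb10 plus Psmb7, per length, was 12.1 to 12.5% for pan-BC, 14.2 to 15.2% for ON-BC, 15.4 to 16.4% for OFF-BC, 4.49 to 5.20% for rods and 7.83 to 9.57% for blue cones. The populations did not overlap in any of the 4 comparisons (exact permutation p 0.1 each, adjusted 0.123). The share for pan-BC lay below that of both ON-BC and OFF-BC without overlap. In RNA-seq, pan-BC also differed from ON-BC and OFF-BC in genotype, and the part of such differences between bipolar libraries was not tested.

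The other inducible subunits had low counts. Psmb8 (chr17:34198195-34201454), the counterpart of Psmb5, was at 5.32, 2.02 and 0 for pan-BC, 8.26, 0 and 1.03 for ON-BC, 5.59, 16.8 and 7.72 for OFF-BC, 0.970, 0 and 2.16 for rods and 3.76, 14.4 and 22.2 for blue cones. Its mean was highest in blue cones, with a log2 difference of -2.16 for pan-BC minus blue cones (limma adjusted p 0.0303 against 0) and -2.70 for rods minus blue cones (0.0125). The first call was lost without pan-BC library 2 or 3 or blue cone library 2 or 3 (adjusted p 0.0513 to 0.155), and the second without rod library 2 or blue cone library 3 (0.0578 and 0.0613). Psmb9 (chr17:34182030-34187330), the counterpart of Psmb6, was at 4.25, 0 and 3.67 for pan-BC, 0, 8.82 and 2.05 for ON-BC, 41.4, 27.6 and 24.3 for OFF-BC, 0 in all rod libraries and 0.752, 3.79 and 2.22 for blue cones. Relative to their partners per length, Psmb8 reached at most 4.11% in any library and Psmb9 at most 0.431%, below the share of Psmb10 in every library.

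Psme1 encodes PA28 alpha and showed the largest difference of the 48 genes. It lies at chr14:55578494-55581527 on the plus strand. Its normalized count was 1279.6, 1359 and 1126 for pan-BC, 1020.5, 1147 and 1199 for ON-BC, 2454, 1925 and 2231 for OFF-BC, 3.88, 7.17 and 17.3 for rods and 109, 122 and 152 for blue cones. The rod values rest on 4, 7 and 16 reads, and OFF-BC was highest, with no overlap between neighboring populations other than pan-BC and ON-BC. The ratio of the pan-BC to the blue cone mean was 9.83. The log2 difference was 7.12 (SE 0.31) for pan-BC minus rods and 3.30 (SE 0.31) for pan-BC minus blue cones, with limma adjusted p 1.38e-11 and 5.28e-06 past 2-fold. Rods were below blue cones without overlap, with a rods minus blue cones difference of -3.82 (1.01e-06). With the length trend removed, the pan-BC differences remained past 2-fold at 6.10 and 2.43.

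Psme2 encodes PA28 beta, which assembles with PA28 alpha into a single ring, and is its neighbor at chr14:55587440-55591101 on the minus strand. It was at 455, 465 and 395 for pan-BC, 425, 407 and 486 for ON-BC, 772, 602 and 778 for OFF-BC, 164, 167 and 161 for rods and 217, 262 and 248 for blue cones. Pan-BC exceeded rods by 1.41 (limma adjusted p 0.0108 past 2-fold) and blue cones by 0.85 (2.71e-05 against 0), in the direction of Psme1 with a smaller size. With the length trend removed both of these calls ended, at 0.39 against rods (adjusted p 1 past 2-fold, 0.00391 against 0) and -0.01 against blue cones (0.921 against 0). Both genes have 977 exonic bases, so that their counts compare per length. The ratio of Psme1 to Psme2 counts was 2.81, 2.92 and 2.85 for pan-BC, 2.40, 2.82 and 2.47 for ON-BC, 3.18, 3.20 and 2.87 for OFF-BC, 0.502, 0.467 and 0.612 for blue cones and 0.0237, 0.0429 and 0.107 for rods. Reads of PA28 alpha thus outnumbered those of PA28 beta in bipolar cells and were outnumbered in both photoreceptors, without overlap (exact permutation p 0.1, adjusted 0.123). Psme2b, a near copy of Psme2 that may share its reads, stayed at or below 16.8 in every library.

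Psme3, which encodes the nuclear activator PA28 gamma, ran the other way. It was at 578, 552 and 748 for pan-BC, 805, 928 and 875 for ON-BC, 601, 663 and 717 for OFF-BC, 1163, 1057 and 1292 for rods and 1922, 2103 and 2192 for blue cones. Blue cones were highest and rods next, and pan-BC minus blue cones was -1.74 (limma adjusted p 5.41e-05 past 2-fold) and pan-BC minus rods -0.91 (3.68e-06 against 0). Psme4, the PA200 activator, was at 639, 539 and 625 for pan-BC, 604, 722 and 601 for ON-BC, 615, 734 and 577 for OFF-BC, 828, 788 and 898 for rods and 458, 432 and 392 for blue cones, and rods exceeded blue cones by 0.97 (limma adjusted p 4.41e-06 against 0). Psmf1, the PI31 inhibitor, was at 2635, 2758 and 2429.9 for pan-BC, 2440.3, 2470.2 and 2732 for ON-BC, 3279, 2779 and 2812 for OFF-BC, 1143, 1141 and 1078 for rods and 1759.9, 1814 and 2065 for blue cones. It exceeded rods by 1.22 at the edge of the 2-fold test (limma adjusted p 0.0498), which it no longer passed without pan-BC library 1 or 2 or any 1 of the 3 rod libraries (0.0693 to 0.153). With the replicate number as a block the call was also lost (0.0625).

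**Figure D4:**
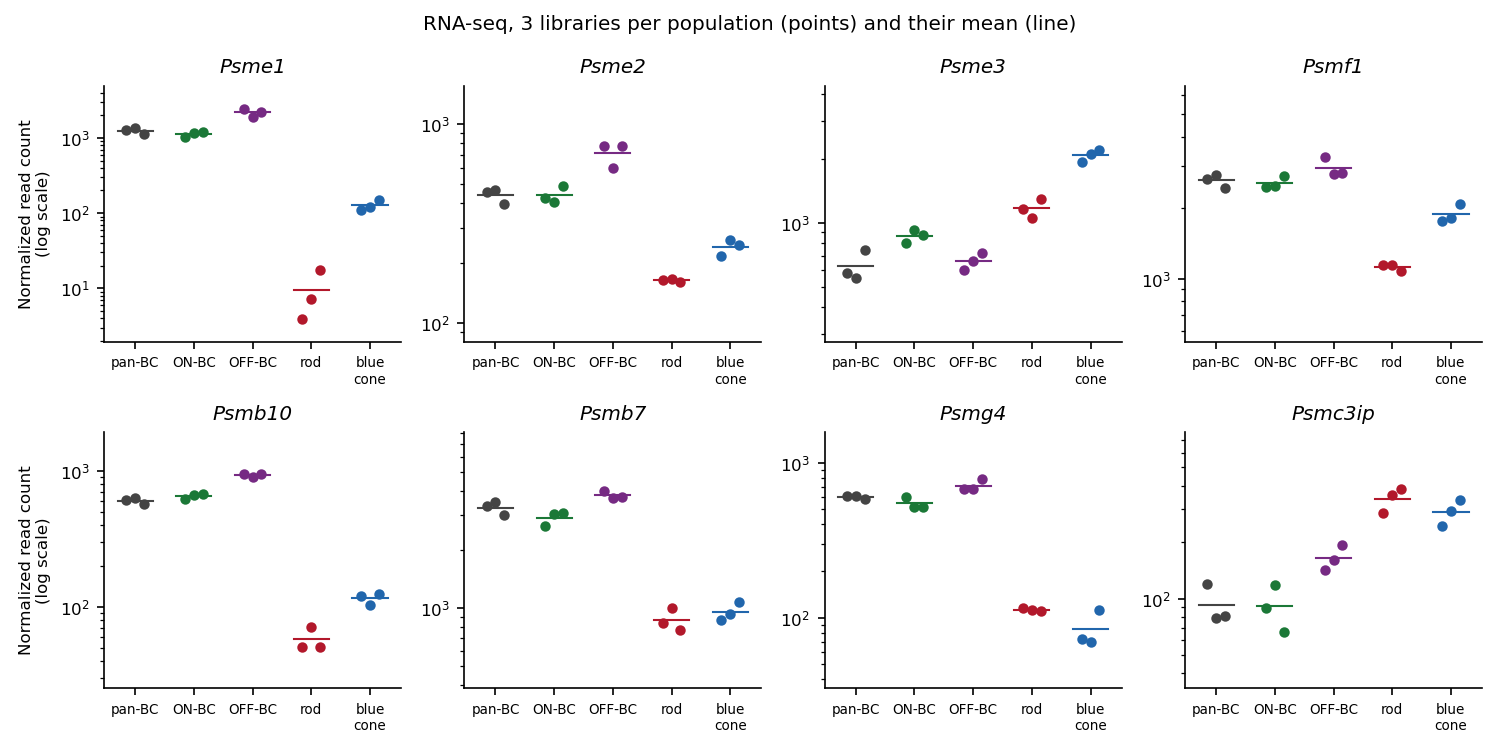
Normalized read count (log axis) of Psme1, Psme2, Psme3, Psmf1, Psmb10, Psmb7, Psmg4 and Psmc3ip in each RNA-seq library (points), by population, with the population mean (line). Psme1 falls from 1126 or more in pan-BC to 17.3 or less in rods, while Psme3 and Psmc3ip are lower in every bipolar library than in every photoreceptor library.

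Of the assembly chaperones, Psmg4 changed most. It was at 614, 607 and 584 for pan-BC, 603, 519 and 514 for ON-BC, 677, 674 and 784 for OFF-BC, 116, 112 and 110.2 for rods and 72.2, 69.8 and 112 for blue cones, and all 9 bipolar libraries were above all photoreceptor libraries. Pan-BC exceeded rods by 2.41 and blue cones by 2.85 (limma adjusted p 5.22e-07 and 3.31e-08 past 2-fold). With 554 exonic bases it is the shortest member, and with the length trend removed the difference was 1.06 against rods, no longer past 2-fold, and 1.42 against blue cones. Its dimer partner Psmg3 was higher by 0.61 and 0.80, and Psmg1 and Psmg2, which form the other chaperone pair of the alpha ring, by 0.97 and 0.43 against rods. These directions did not hold with the length trend removed, where against rods Psmg3 was at -0.49 (limma adjusted p 0.000208), Psmg2 at -0.31 (0.00397) and Psmg1 at 0.00 (0.987). Of the base chaperones, Psmd10 was higher (0.73 and 0.39, but 0.08 and -0.02 and not called with the length trend removed), and Psmd5 (-0.68 and -0.75) and Psmd9 (-0.61 and -0.45) lower in pan-BC. Psmc3ip was at 119, 78.7 and 80.8 for pan-BC, 88.7, 118 and 66.7 for ON-BC, 142, 161 and 193 for OFF-BC, 284, 356 and 384 for rods and 243, 293 and 336 for blue cones, differences of -1.88 and -1.65 that passed 2-fold (limma adjusted p 0.00228 and 0.0198). The second was lost without pan-BC library 2 or 3 or blue cone library 3 (0.0696 to 0.0775).

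ON-BC and OFF-BC, which differ in single or double sort as well as in cell type, were compared next. Of the 48 genes, 4 were higher and 11 lower in ON-BC at an adjusted p under 0.05 by limma, where 12.7% and 14.2% of all genes were, and the median was -0.22 beside -0.02. Past 2-fold, 0 were higher and 0 lower by limma (all genes 2.95% and 3.60%), DESeq2 also gave 0, edgeR called 1 lower, and 1 was lower at an unadjusted p under 0.05 by limma. Of these 15 genes, 7 kept the call without ON-BC library 1, and 8 without ON-BC library 2 or OFF-BC library 1. Lower in ON-BC were the PA28 genes Psme1, Psme2 and Psme2b, the inducible subunits Psmb9 and Psmb10, Psmb7 of the core, the ATPases Psmc2 and Psmc5, the chaperones Psmg3 and Psmd5, and Psmc3ip. Higher were the 19S subunits Psmd1 and Psmd3, Psme3 and the chaperone Psmg2.

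These members known for antigen processing were thus lower in ON-BC than in OFF-BC. Psme1 differed by -0.97 (limma adjusted p 0.0285 against 0), Psme2 by -0.70 (0.000918), Psmb10 by -0.52 (0.013) and Psmb9 by -3.33 (0.00328). The 3 OFF-BC libraries lay above the 3 ON-BC libraries for each of the 4 genes. Other members were separated as well, with 23 of the 48 lower in ON-BC without overlap and 6 higher. Of the 74 ribosomal protein genes tested, 35 were lower in ON-BC without overlap and 1 higher. The share of all genes without overlap was not computed for ON-BC and OFF-BC, so neither count can be read against a background. The Psme1 call was lost without any 1 of the ON-BC libraries or OFF-BC library 1 or 3 (0.0534 to 0.0988). It was also lost with the length trend removed (-0.77, limma adjusted p 0.0678). In that setting the calls of Psmb7 (-0.19, 0.13) and Psmc5 (-0.25, 0.0595) were lost too. Psme2b, at 7.22, 0.980 and 4.10 for ON-BC and 16.8, 10.8 and 13.2 for OFF-BC, differed by -1.72, a call lost without ON-BC library 2 or OFF-BC library 1 (0.0952 and 0.0675). Microglia markers, 10 genes of a cell type that expresses these genes, summed to 57.8 to 62.9 for ON-BC and 101 to 275 for OFF-BC, with none of the 10 at 0 in either. Rod markers were higher in ON-BC and cone markers in OFF-BC, as given above, and the part of these 3 lists in the differences was not tested.

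In the other direction, Psmd3 was 0.85 higher in ON-BC (limma adjusted p 0.000297), with every ON-BC library above every OFF-BC library. Psme3 differed by 0.40 (0.0247), a call lost without ON-BC library 2 or 3 or OFF-BC library 1 or 2 (0.0505 to 0.101). Psmg2 differed by 0.32 (0.0321), lost without any 1 of the ON-BC libraries or OFF-BC library 2 or 3 (0.0546 to 0.105). The 20S genes had a median of -0.32 with 1 called lower, and 19S genes -0.13 with 2 higher and 2 lower. All genes under 1000 bases had a median of -0.27, and with the length trend removed 7 members were higher and 8 lower (all genes 13.2% and 13.9%).

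Rods and blue cones were also compared. Of the 48 genes, 5 were higher and 19 lower in rods (all genes 27.2% and 30.4%), and past 2-fold 0 were higher and 1, Psme1, was lower (4.63% and 11.3%; 0 were higher also by edgeR, by DESeq2 and at an unadjusted p under 0.05 by limma), with a median of -0.23 beside 0.00 over all genes. The 19S genes made up much of the lower set, with 10 of 17 lower, 2 higher and a median of -0.35, whereas the 20S genes had 1 higher and 1 lower. The 5 higher genes were Psma3, Psmc6, Psmd11, Psme4 and Psmg4, at 0.78, 0.74, 0.49, 0.97 and 0.44. Microglia markers summed to 66.0 to 116 for rods, 449 to 1074 for blue cones and 24.5 to 40.4 for pan-BC. Psmb8 had its highest mean in blue cones, where these markers were highest, whereas Psme1 and Psmb10 were higher in pan-BC, where the markers were lowest, than in blue cones, and their part in the rod to blue cone differences was not tested.

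Genes of the ubiquitin-proteasome pathway outside the name rule, 30 of which were tested, went in both directions. Against rods 14 were higher and 10 lower in pan-BC (44.2% and 35.4% of all genes), of which 3 and 3 passed 2-fold (all genes 27.8% and 15.8%). Against blue cones 10 were higher and 12 lower (42.0% and 34.3%), of which 3 and 4 passed 2-fold (22.7% and 13.7%). Shfm1, which encodes the small 19S subunit SEM1, was higher by 1.94 and 1.80. The polyubiquitin gene Ubb was higher than in rods by 1.95 and the shuttle receptor Ubqln2 by 1.53, and the ubiquitin fusion gene Rps27a was higher than in blue cones by 1.99. Nfe2l2, which encodes the stress factor NRF2, differed by -4.60 and -5.47 (pan-BC minus rods and minus blue cones), and Ngly1, which encodes a deglycosylase acting on the proteasome gene activator NRF1, by -1.49 and -1.74. The unfoldase gene Vcp was lower than in blue cones (-1.58). Ubb and Rps27a share sequence with other copies, so that their counts are uncertain.

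Of 14 antigen presentation and interferon genes, pan-BC had 8 higher and 6 lower relative to rods (44.2% and 35.4% of all genes). Relative to blue cones, 2 were higher and 11 lower (42.0% and 34.3%). Nlrc5, an activator of class I genes, was higher than in both (5.37 and 3.95), as was the interferon regulatory factor gene Irf1 (4.77 and 2.38). The class I gene H2-K1, whose reads may be shared with other class I genes, was higher than in rods by 2.97 and differed by -1.55 for pan-BC minus blue cones. Tap1, a subunit of the peptide transporter, was higher than in rods by 2.67, while Irf7 and the trimming peptidase gene Erap1 differed by -4.49 and -1.75. Among those lower than in blue cones by more than 2-fold were the interferon signaling genes Irf9 (-2.39) and Irf7 (-2.27) and the class I gene H2-D1 (-2.45). Against OFF-BC, 8 of the 14 were lower in ON-BC by each of limma, edgeR and DESeq2, and 0 were higher by any of them or at an unadjusted p under 0.05, with Irf1 at -3.59 and Tap1 at -2.67 past 2-fold. Of all genes, 14.2% were lower and 12.7% higher by limma. Psme1, Psme2, Psme2b, Psmb9, Psmb10 and these 8 genes were thus lower in ON-BC, where the microglia markers were also lower, whereas Psme3 was higher and Psmb8 overlapped.

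To place chromatin accessibility beside transcript level, ATAC-seq regions of 200 bases within 1000 bases before to 100 after a start site were assigned to members. An ATAC-seq count reports how often a transposase cut in a region, and open chromatin at a start site is a usual feature of an expressed gene. This gave 57 promoter regions of 45 members, of which 12 regions also lay at the start of another gene, and no region for Psma5, Psma8, Psmb10, Psmb11 and Psme2b. For Psma5 an open region lay just outside this window, centered 154 bases after the start. It was at 326 and 348 for pan-BC and 834 and 800 for rods. Promoter sequences are shown for Psme1, whose promoter and transcript changed together, and for Psmb9, whose region at the shared start with Tap1 differed between rods and blue cones. The third is Psmb3, whose promoter was more open in rods than in pan-BC while its transcript was lower there. With the length trend removed, the Psmb3 transcript no longer differed between them. Each run is the 250 bases before the RefSeq start (GRCm38.p6, the patch of mm10), 5′ to 3′ on the strand of the gene, with the bases inside the ATAC-seq region in capitals. They lie at chr14:55578244-55578493 on the plus strand, chr17:34187331-34187580 on the minus strand and chr11:97703184-97703433 on the plus strand.
Psme1: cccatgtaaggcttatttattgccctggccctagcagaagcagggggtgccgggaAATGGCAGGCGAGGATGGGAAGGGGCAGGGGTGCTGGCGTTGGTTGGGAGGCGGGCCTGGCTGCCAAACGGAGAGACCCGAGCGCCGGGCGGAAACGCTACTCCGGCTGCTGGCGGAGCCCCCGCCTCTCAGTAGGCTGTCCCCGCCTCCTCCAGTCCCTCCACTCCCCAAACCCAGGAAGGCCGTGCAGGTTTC
Psmb9: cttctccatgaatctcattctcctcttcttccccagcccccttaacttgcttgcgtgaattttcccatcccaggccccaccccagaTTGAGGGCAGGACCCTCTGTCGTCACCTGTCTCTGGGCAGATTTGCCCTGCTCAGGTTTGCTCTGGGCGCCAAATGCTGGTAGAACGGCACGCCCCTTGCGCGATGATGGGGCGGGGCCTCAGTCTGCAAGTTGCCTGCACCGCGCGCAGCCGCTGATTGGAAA
Psmb3: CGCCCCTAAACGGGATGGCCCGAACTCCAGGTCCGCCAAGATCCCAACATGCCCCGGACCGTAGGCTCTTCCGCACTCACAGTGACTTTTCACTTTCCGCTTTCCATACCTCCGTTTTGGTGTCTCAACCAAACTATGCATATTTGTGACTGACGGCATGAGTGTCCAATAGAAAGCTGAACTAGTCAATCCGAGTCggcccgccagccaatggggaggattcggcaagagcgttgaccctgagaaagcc

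The Psme1 promoter region (chr14:55578299-55578498), shown in capitals above, was at 64.0 and 62.7 normalized counts in pan-BC, 62.7 and 73.2 for ON-BC, 52.5 and 59.4 for OFF-BC, 1.56 and 5.42 for rods, 25.9 and 27.5 for blue cones and 10.8 and 16.9 for green cones. Accessibility was thus lowest in rods, higher in cones and highest in bipolar cells, as was the transcript in the populations with both assays, whereas ON-BC minus OFF-BC was 0.27 (limma adjusted p 0.702 against 0) with the ON-BC libraries above, opposite to the transcript. Pan-BC exceeded rods by 3.99 (limma adjusted p 1.18e-05 past 2-fold) and blue cones by 1.22 (0.024 against 0), and rods minus blue cones was -2.77 (0.00745 past 2-fold). The region at the start of Psmb9 and Tap1 (chr17:34187295-34187494) was at 53.7 and 52.9 for rods and 161 and 203 for blue cones, a difference of -1.74 (0.0474 past 2-fold), and at 134 and 87.8 for pan-BC. For Psmb10 the nearest region lay 1315 bases inside the gene at chr8:105936977-105937176 and held 246 and 228 for pan-BC and 518 and 540.1 for rods, higher in rods while the transcript was lower.

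Of the member promoters that differed, most were more accessible in rods. Between pan-BC and rods, 4 of the 57 regions were higher and 34 lower in pan-BC (27.7% and 44.3% of 16363 promoter regions tested), of which 1 and 13 passed 2-fold (17.1% and 13.8%), with a median of -0.81 beside -0.37 over all promoters. With regions scaled to the library total 6 were lower by more than 2-fold, and with TMM scaling 17. Of all 108448 regions tested, those lower past 2-fold moved from 12179 to 10302 and 14837 in these 2 settings. The median of all regions moved from 1.16 to 1.27 and 0.96. Shares of all promoters under these settings are not given here. The 14 regions past 2-fold fell to 6 without pan-BC library 2 or rod library 1 and to 9 without rod library 2. Against blue cones, 9 were higher and 22 lower (28.5% and 28.6%), with 0 past 2-fold in either direction by limma and DESeq2 and 1 lower by edgeR (all promoters 11.5% and 3.72%), 1 lower at an unadjusted p under 0.05 by limma, and a median of -0.37 beside -0.05. With TMM scaling 2 were higher and 32 lower, and with library totals 4 and 27, settings that moved the median of all 108448 regions tested from 0.54 to 0.26 and 0.37. The 31 regions fell to 14 without pan-BC library 2 and to 20 without blue cone library 2.

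The Psmb3 region was at 278 and 208 for pan-BC, 893 and 989 for rods, 516 and 513 for blue cones and 528 and 508 for green cones, and pan-BC minus rods was -1.96 (0.000146 past 2-fold by limma). Its transcript was 1.30 higher in pan-BC, but with the length trend removed this difference was 0.10 (limma adjusted p 0.412 against 0). The region of Psmd9 was at 68.8 and 35.9 for pan-BC and 275 and 243 for rods (-2.35), and that of Psmd3 at 129.6 and 81.5 and 462 and 439 (-2.12), and both transcripts were lower in pan-BC as well. Among the core genes, a region shared by Psma7 and Ss18l1 and a region of Psmb6 were also past 2-fold lower in pan-BC (-1.49 and -1.40). The Psma7 and Psmb6 transcripts were past 2-fold higher, though not with the length trend removed (0.86 and 0.64). The 4 regions higher in pan-BC belonged to Psme1, Psmd6 (1.13), Psmd14 (1.12) and Psmb9 with Tap1 (1.01). The libraries are plotted for 5 of these regions, including green cones.

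**Figure D5:**
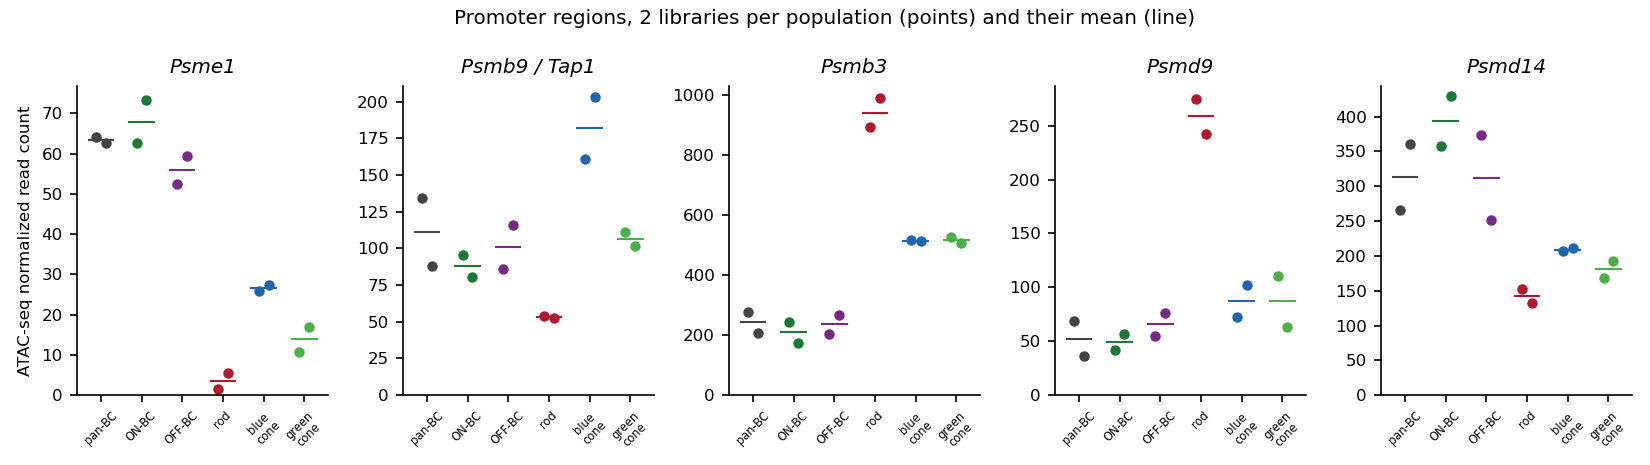
ATAC-seq normalized read count (y axis, from 0, a scale for each panel) of the promoter regions of Psme1, Psmb9 with Tap1, Psmb3, Psmd9 and Psmd14 in the 2 libraries (points) of each population (x axis), with their mean (line). Rods are lowest at Psme1, Psmb9 and Psmd14 and highest at Psmb3 and Psmd9.

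Between ON-BC and OFF-BC, 2 regions were higher, at Psmc4 (0.53) and Psmd6 (0.67), and 3 were lower, at Psmd3 (-1.11), Psmg3 (-0.76) and Psmg2 with Cep76 (-1.04), where 8.82% and 6.00% of all promoters were. By limma, edgeR and DESeq2, 0 passed 2-fold (0.348% and 0.911%), with 0 at an unadjusted p under 0.05 by limma, and the median was -0.11 beside 0.11 over all promoters. The direction depended on scaling, with 0 higher and 7 lower under TMM and 0 and 11 under library totals, which moved the median of all regions from 0.15 to -0.07 and -0.14, and the calls at Psmc4 and Psmd6 were lost in both. At Psmd3 and Psmg2 the promoter was lower in ON-BC and the transcript higher, and at Psmg3 both were lower. Between rods and blue cones, 27 were higher and 5 lower in rods (35.0% and 14.4%), with 0 and 2 past 2-fold by limma (1.04% and 5.56%; higher, 1 by edgeR, 0 by DESeq2 and 0 at an unadjusted p under 0.05 by limma), the 2 being Psme1 and Psmb9 with Tap1, and a median of 0.61 beside 0.35. With library totals 12 were higher and 7 lower, a setting that moved the median of all regions from -0.20 to -0.45. The 32 regions fell to 17 without rod library 1 and to 19 without blue cone library 2, and the 2 past 2-fold fell to 0 or 1 when any 1 rod or blue cone library was left out.

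Short motifs were searched on both strands of the 250 bases before the start in 45 RefSeq windows of 42 members. The core of the antioxidant response element, TGACNNNGC, bound by NRF1 and NRF2, factors known to drive proteasome genes, was found in 5 member windows (11.1%) and in 10.2% of 32851 windows of all genes. The matches are printed with up to 10 flanking bases and the core in capitals, since 2 of them lie at 20S and 2 at 19S genes, and those of Psmc6 and Psmd12 read the reverse complement of the core.
Psmb5: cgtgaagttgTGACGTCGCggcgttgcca
Psmb6: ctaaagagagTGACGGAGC
Psmc6: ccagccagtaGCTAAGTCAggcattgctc
Psmd12: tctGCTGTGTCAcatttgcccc
Psmd9: atctagccggTGACCCCGCccacttccaa

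These sites lie at chr14:54618024-54618052 (minus strand), chr11:70525338-70525356, chr14:45329587-45329615, chr11:107479278-107479299 and chr5:123228149-123228177 (plus strand), with flanks. The core of the interferon-stimulated response element, GAAA followed after any 2 bases by GAAA, matched at Psmb3, Psmd4 and Psmd9, 6.67% of member windows beside 2.98% of all. CCAAT was found in 33.3% beside 33.8%, and TAATCC, the core bound by photoreceptor homeobox factors, in 6.67% beside 6.25%, at Psma1, Psma3 and Psmd11. A match describes these letters and no binding.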

How the data were processed

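RNA-seq and ATAC-seq libraries of FACS-sorted retinal cells were analyzed from the deposited tables of the whole series. RNA was amplified with the SMARTer Ultra Low RNA kit per the labels. The submitters' processing notes name STAR 2.7.0d, HTSeq, featureCounts, Bowtie2 2.2.5, Picard 2.19.0, SAMtools 1.3, bedtools 2.24.0, MACS2 2.1.1 and HOMER 4.8, and the mm10 build, and the study's methods give counting per gene with HTSeq after alignment with STAR. Both deposited tables hold signal values that the authors made by dividing the reads of a gene or 200-base region by a size factor per library. Dividing by the step of each column gave whole reads for 100% of values within a tolerance of 0.01. Of the gene names, 27 were in date form and 2 were repeated. The 2 double-sorted green cone ATAC-seq libraries were not analysed here, and peak lists were not used. Strandedness of the counting is not given in the sources used here.

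Genes and regions with low counts were removed (filterByExpr of edgeR 4.0.16 on recovered reads). In R 4.3.3, limma 3.58.1 was fitted to log2(normalized count + 1) over all populations of an assay, testing against 0 (eBayes with a trend) and against a log2 difference of 1 (treat), with Benjamini-Hochberg adjustment over all genes or regions and a threshold of 0.05. Fold changes are on the log2(value + 1) scale, which understates those of genes with few reads. Ratios were compared by exact two-sided permutation tests. The comparisons with pan-BC share its libraries. Members were described in full if past 2-fold in any comparison, if a standard or inducible catalytic subunit, if among the 3 with the largest rise or fall of a comparison, or if among the 3 with the smallest or largest ratio of population means. The members and lists were chosen with earlier results of these data known. Same-numbered ON-BC and OFF-BC libraries had the same age in the labels, which do not say that they were sorted together, and did not all deviate together (correlations of -0.076, 0.222 and -0.065 in RNA-seq), so the numbers were not taken as pairs, and the fit with the number as a block is an alternative. Exon lengths, start sites and promoter sequences came from RefSeq (GRCm38.p6). Alternatives were edgeR and DESeq2 1.42.0 on the recovered reads, TMM and library-total scaling, a pseudocount of 8, no filter, a replicate block, only the populations compared, each library left out, a promoter window of 500 bases either side and, chosen after seeing the data, removal of a length trend. The fits were tested on simulated data. Values of some genes of the pathway and interferon lists are not reported here, although the lists' counts include them.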

Additional observations from a re-analysis of the deposited data

How the results depend on the processing

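All counts are of members (RNA-seq) or their promoter regions (ATAC-seq). Where no share of all genes or promoters stands beside a count, none is given for that setting, and the count has no background. In RNA-seq, library-total scaling gave 18 past 2-fold against rods (median 0.92) and 14 against blue cones (median 0.71). With the length trend removed, 5 were past 2-fold against rods, where 3180 of 13264 genes were higher and 2466 lower. None of these calls fell on the 14 core genes in either comparison (0 each), and the medians turned to -0.07 and -0.11. By edgeR, 1 was past 2-fold between ON-BC and OFF-BC and 2 between rods and blue cones. Of the 14 core genes, edgeR called 8 past 2-fold against rods and 4 against blue cones, where limma called 4 and 2 and DESeq2 3 and 2. The share of all genes higher past 2-fold is given by limma only (27.8% and 22.7%), so the edgeR and DESeq2 counts cannot be read against it. In ATAC-seq, TMM scaling gave medians of -1.03 against rods, -0.67 against blue cones (2 past 2-fold) and -0.34 for ON-BC minus OFF-BC. Library totals gave 7 past 2-fold against rods, 1 against blue cones (median -0.56), 11 different between ON-BC and OFF-BC (median -0.41) and 19 between rods and blue cones (median 0.27). Against blue cones, edgeR called 1 past 2-fold. Between rods and blue cones, edgeR called 4 past 2-fold, DESeq2 1, a pseudocount of 8 left 0, and only those populations left 0. Between ON-BC and OFF-BC alone, 0 differed by limma. The cause of these changes was not tested.

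Leaving out 1 library at a time gave these ranges. In RNA-seq, the median against rods was 0.53 to 0.67, and between ON-BC and OFF-BC 0 to 1 were past 2-fold (1 without ON-BC library 2) and 8 to 12 differed. In ATAC-seq, 6 to 14 were past 2-fold against rods. Against blue cones 14 to 27 differed with medians of -0.47 to -0.29, the ON-BC minus OFF-BC median was -0.18 to 0.00, and between rods and blue cones 0 to 1 were past 2-fold and 17 to 26 differed, with medians of 0.44 to 0.67.

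With the replicate number as a block, which the data did not show to pair libraries, RNA-seq gave 9, 8, 0 and 1 past 2-fold and 40, 38, 15 and 26 different (against rods, against blue cones, ON-BC to OFF-BC, rods to blue cones), and in ATAC-seq 1 region was past 2-fold between rods and blue cones. The block kept all 15 of the member calls between ON-BC and OFF-BC, whose same-numbered libraries had the same age. For the 32 member differences that were past 2-fold or among the largest of a comparison, 422 of 480 recomputed values kept their side of the threshold, 58 lost a call and 0 turned. Of all 119 member differences called against 0, 77 kept the call with the length trend removed, 23 lost it and 19 turned, 6 of these with a call the other way. With library totals 1 turned (Psmd2 against rods, to 0.11, adjusted p 0.24 by limma), and none turned under the other settings or without any 1 library. Psma7 against rods was lost by DESeq2 (adjusted p 0.0555) and TMM (0.0593, limma), and Psmf1 against rods by DESeq2 (0.107), TMM (0.135), a pseudocount of 8 (0.0673) and no filter (0.0646). Counts under 10 reads, as for Psmb8, Psmb9 and Psme2b, limit what could be detected.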
